A study of Mus musculus with 6 samples.

Results

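The annexins are a family of proteins that bind membranes when calcium rises, and 8 of them, Anxa1, Anxa2, Anxa3, Anxa4, Anxa5, Anxa6, Anxa7 and Anxa11, were followed here among the 54752 genes counted in the right hippocampus of sham-operated and BCAS-operated mice. The members were matched by gene symbol, and the annexins outside this list are given after them. An annexin consists of a conserved core of repeats, which holds calcium between itself and negatively charged lipids such as phosphatidylserine, and of a tail before the core that differs between members and binds partner proteins. Annexins take part in vesicle traffic, in the patching of torn plasma membranes, in cell surface plasmin formation and in the restraint of inflammation. In brain tissue several of them are known from microglia, astrocytes and vessel cells, whereas others are made by most cells, neurons included.

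BCAS, bilateral carotid artery stenosis, lowers blood flow to the forebrain by means of a small metal coil placed around each common carotid artery, with the narrower coil on the right side. Sham mice had the same operation without coils. All 6 mice were male wild-type (WT) C57BL/6 animals, of the J substrain in the study's methods and given as 14 weeks of age in the labels, and the tissue was taken 3 weeks after surgery. Each library came from the whole right hippocampus of a different mouse, with 3 libraries per group chosen at random by the authors, so that P values measure the spread between mice. The comparison asks which transcripts differ in the hippocampus after prolonged hypoperfusion, and here it is read for the annexins.

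The libraries held 29652456 to 35607098 counts. Neuronal markers were abundant in every library, with summed levels of 6683 to 7217 CPM (counts scaled by the size of the library) in the sham group against 3723 to 5435 CPM in the BCAS group. Of these markers, 5 of 6 passed the test as lower in BCAS mice, beside 13.2% of all tested genes. Markers of the choroid plexus, a neighboring ventricular tissue, set libraries apart inside both groups. Their sum was 65.1 CPM in sham mouse 3 and 37.1 CPM in BCAS mouse 2, but 962 to 5806 CPM in the other 4 libraries. The annexins called below were the same in those 4 libraries alone. Of the 18617 genes that passed the filter on low counts, 3356 were higher and 2463 lower in BCAS mice at an adjusted P under 0.05 by edgeR's quasi-likelihood test with Benjamini-Hochberg adjustment. The lower count fell to 1449, 1412 and 1260 when sham mouse 1, 2 or 3 was left out. When libraries were scaled by their totals instead of by TMM (trimmed mean of M values), these counts became 3859 and 1788, and the median log2 fold change of all tested genes moved from 0.018 to 0.0945.

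All 8 annexins passed the filter on low counts. Anxa1 to Anxa5 were higher in BCAS mice than in sham mice, by 2.61-fold to 5.55-fold, and no annexin was lower at the threshold. Anxa3 had the largest fold in the family, followed by Anxa4, Anxa2, Anxa5 and Anxa1. Anxa3 stayed first in every alternative, but Anxa4 and Anxa2, and Anxa5 and Anxa1, changed places in some. Without sham mouse 3 the log2 fold change was 2.01 for Anxa2 and 1.83 for Anxa4. Without sham mouse 1 it was 1.49 for Anxa1 and 1.45 for Anxa5. Anxa6, Anxa7 and Anxa11 did not pass the test, with log2 fold changes of 0.04, -0.07 and -0.36. Thus 5 of 8 members were called higher, beside 18.0% of all tested genes, and 0 of 8 were called lower, beside 13.2%. The same 5 members also exceeded a log2 fold change of 1, as did 8.47% of tested genes in this direction and 0.999% in the other. Tested against a log2 fold change of 1 itself with edgeR's glmTreat, 4 of them passed and Anxa1 did not (adjusted P 0.435). In all 5 members called higher every BCAS mouse was above every sham mouse, as in 25.3% of tested genes, and in no member was the order turned, as in 22.7% of them. The median log2 fold change was 1.41 over the 8 members and 0.018 over all tested genes. In bulk tissue a change in the number of cells of a type cannot be told apart from a change in the RNA made per cell.

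**Figure D1:**
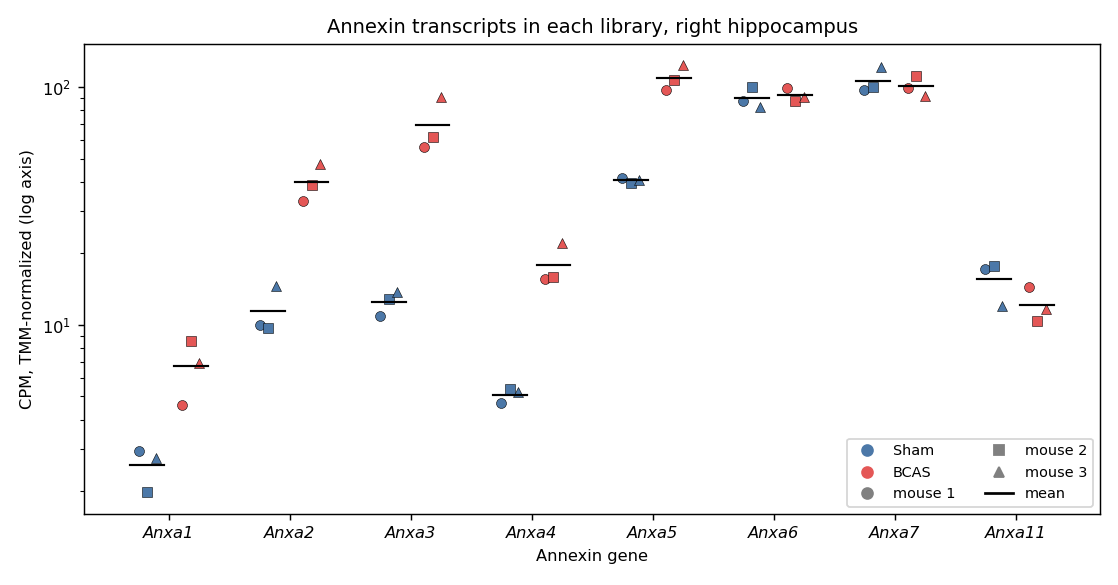
Level of each annexin in each library in CPM on a log axis, with 1 point per mouse for the 3 sham and 3 BCAS mice and a bar at each group mean. The points of the groups are apart for Anxa1 to Anxa5, where the BCAS means are 6.70, 39.8, 69.4, 17.9 and 109 CPM, and intermix for Anxa6, Anxa7 and Anxa11.

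The sequences that lie before the start sites of the annexins that rose are shown first, since these members were all higher in BCAS mice. The RefSeq promoter table (GRCm38.p6, the assembly also called mm10) had an entry for 6 of the 8 members, among them Anxa1, Anxa2, Anxa4 and Anxa5, and not for Anxa3 and Anxa6. Each line gives the 250 bases before the start site, 5′ to 3′ on the strand of the gene. Capitals mark TGANTCA (AP-1) in Anxa2 and TATAAA in Anxa1 and Anxa2.
Anxa1: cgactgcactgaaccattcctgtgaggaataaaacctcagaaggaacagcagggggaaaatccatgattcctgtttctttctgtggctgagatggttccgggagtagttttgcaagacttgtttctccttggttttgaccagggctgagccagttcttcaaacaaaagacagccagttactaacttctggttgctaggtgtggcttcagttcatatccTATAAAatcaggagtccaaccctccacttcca
Anxa2: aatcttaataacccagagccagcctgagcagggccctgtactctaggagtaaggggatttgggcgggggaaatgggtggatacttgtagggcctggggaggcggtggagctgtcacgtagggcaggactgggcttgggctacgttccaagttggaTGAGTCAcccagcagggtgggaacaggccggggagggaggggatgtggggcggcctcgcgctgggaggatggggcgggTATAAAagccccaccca
Anxa4: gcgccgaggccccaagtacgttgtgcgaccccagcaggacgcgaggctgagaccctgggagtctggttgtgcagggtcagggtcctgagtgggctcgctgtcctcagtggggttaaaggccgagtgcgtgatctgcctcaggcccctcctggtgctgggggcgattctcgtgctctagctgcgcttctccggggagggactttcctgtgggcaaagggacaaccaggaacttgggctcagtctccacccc
Anxa5: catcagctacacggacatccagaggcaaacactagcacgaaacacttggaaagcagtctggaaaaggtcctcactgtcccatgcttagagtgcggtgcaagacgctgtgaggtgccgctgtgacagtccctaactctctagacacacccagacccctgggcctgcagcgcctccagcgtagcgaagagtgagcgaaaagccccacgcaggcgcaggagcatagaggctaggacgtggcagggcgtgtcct
They span chr19:20390672-20390921 on the minus strand for Anxa1, chr9:69453433-69453682 on the plus strand for Anxa2, chr6:86793585-86793834 on the minus strand for Anxa4 and chr3:36475888-36476137 on the minus strand for Anxa5. The Anxa1 start site in RefSeq lies 273 bases inside the end of the gene as the count tables give it.

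The share of G and C was 46% before Anxa1, 62.4% before Anxa2, 64.8% before Anxa4 and 58.8% before Anxa5, against a median of 52.4% over all 32851 promoters in the table. Among the members that did not pass the test, it was 42.4% before Anxa7 and 58% before Anxa11. Motifs were searched on both strands as exact letters, namely TGANTCA for AP-1, TTCNNNGAA for STAT factors and AGGAAGT for the core of PU.1, and TATAAA was added after the sequences had been seen. Anxa2 held TGAGTCA at 95 to 89 bases and TATAAA at 17 to 12 bases before its start site, and these did not overlap. Anxa1 held TATAAA at 32 to 27 bases before its start site. No other match was found in the 6 stretches, and these letters occur in 6.75% (AP-1), 7.02% (STAT), 7.69% (PU.1 core) and 12.4% (TATAAA) of all promoters of this length. A match describes letters and is not a bound site.

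Anxa1 encodes the annexin that glucocorticoids induce and that limits inflammation through formyl peptide receptors. The gene (ENSMUSG00000024659.14) lies on the minus strand at chr19:20373428-20390944 in mm10. It had the fewest counts of the 8 members in every library, with levels of 2.95, 1.98 and 2.77 CPM in sham mice 1 to 3 and of 4.59, 8.59 and 6.92 CPM in BCAS mice 1 to 3, from 66 to 100 counts per sham library and 149 to 259 counts per BCAS library. Every BCAS mouse was above every sham mouse, with BCAS mouse 2 highest and BCAS mouse 1 nearest to the sham range. The means were 2.57 ± 0.519 (SD, n = 3) and 6.70 ± 2.01 CPM (SD, n = 3). The log2 fold change was 1.38 (SE 0.27, 95% confidence interval 0.78 to 1.99), with an adjusted P of 0.00515 by edgeR's quasi-likelihood test. In the 4 libraries with high choroid plexus markers it was 1.21, with an adjusted P of 0.0385 by the same edgeR test.

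Anxa2 forms a complex with S100a10 and gathers plasminogen and its activator on the cell surface. The gene (ENSMUSG00000032231.14) lies on the plus strand at chr9:69453620-69491795. Sham mice 1 to 3 had 10.005, 9.70 and 14.6 CPM and BCAS mice 1 to 3 had 33.1, 38.9 and 47.3 CPM. The groups were separated by a wide gap, with BCAS mouse 3 highest and sham mouse 3 the highest of its own group. The means of 11.4 ± 2.73 and 39.8 ± 7.09 CPM (SD, n = 3 each) differed by a log2 fold change of 1.80 (SE 0.19, interval 1.37 to 2.22), with an adjusted P of 1.98e-04 in edgeR. Of its exon bases, 2.63% were shared with an antisense gene that had at most 3 counts in any library, and reads on shared bases were not assigned.

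Anxa3 encodes a lesser known annexin that is found in neutrophil granules and in microglia. The gene (ENSMUSG00000029484.12) lies on the plus strand at chr5:96793339-96845966. Its levels were 10.9, 12.8 and 13.8 CPM in sham mice 1 to 3 and 55.8, 61.6 and 90.9 CPM in BCAS mice 1 to 3. The lowest BCAS mouse was far above the highest sham mouse, and BCAS mouse 3 stood above the other BCAS mice. The mean went from 12.5 ± 1.45 to 69.4 ± 18.8 CPM (SD, n = 3 each), and the log2 fold change came to 2.47 (SE 0.19, interval 2.05 to 2.90), with an adjusted P of 4.05e-05 in edgeR. Ordered by log2 fold change, Anxa3 took place 541 among the 18617 genes tested.

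Anxa4 is a membrane annexin that is abundant in many epithelia. The gene (ENSMUSG00000029994.17) lies on the minus strand at chr6:86736840-86793584. Sham mice 1 to 3 were close together at 4.69, 5.36 and 5.22 CPM, and BCAS mice 1 to 3 had 15.6, 15.9 and 22.1 CPM. The groups did not overlap, and BCAS mouse 3 was again the highest library. The means were 5.09 ± 0.351 and 17.9 ± 3.66 CPM (SD, n = 3 each), and the log2 fold change was 1.81 (SE 0.17, interval 1.44 to 2.19) with an adjusted P of 1.04e-04 in edgeR.

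Anxa5 covers phosphatidylserine on the surface of dying cells, for which it is widely used as a stain. The gene (ENSMUSG00000027712.13) lies on the minus strand at chr3:36448923-36475894. Its levels were 41.5, 39.5 and 40.5 CPM in sham mice 1 to 3 and 96.9, 107 and 123 CPM in BCAS mice 1 to 3. The sham mice differed little from each other, and each BCAS mouse was well above them. Anxa5 had the smallest standard error among the members that rose, at 0.09 for a log2 fold change of 1.43 (interval 1.22 to 1.65), with an adjusted P of 2.27e-05 in edgeR. The means were 40.5 ± 1.02 and 109 ± 13.3 CPM (SD, n = 3 each).

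The members that did not pass the test had intervals that limit the size of a change. Anxa6 (ENSMUSG00000018340.13), a large annexin with a duplicated core that acts on endosomes and cholesterol traffic, lies on the minus strand at chr11:54979108-55033445. It had 87.2, 100.1 and 82.2 CPM in sham mice 1 to 3 and 98.5, 87.1 and 90.9 CPM in BCAS mice 1 to 3. The ranges overlapped almost fully. The fitted fold of Anxa6 was 1.03, with a 95% confidence interval of 0.89 to 1.18 and an adjusted P of 0.789 in edgeR. Its direction turned, to log2 fold changes of -0.03 and -0.02, when sham mouse 3 or BCAS mouse 1 was left out.

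Anxa7 (ENSMUSG00000021814.17), first described as synexin for its effect on secretory granules, lies on the minus strand at chr14:20455260-20480133. It had 97.1, 99.8 and 121 CPM in sham mice 1 to 3 and 99.0, 112 and 92.0 CPM in BCAS mice 1 to 3. The groups overlapped, with sham mouse 3 highest and BCAS mouse 3 lowest. Its fitted fold was 0.951 (interval 0.803 to 1.13, adjusted P 0.649 in edgeR), and the log2 fold change turned to 0.03 without sham mouse 3 and to 0.0028 under scaling by library totals.

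Anxa11 (ENSMUSG00000021866.15), which tethers RNA granules to lysosomes for transport in axons, lies on the plus strand at chr14:25842156-25886804. It had 17.2, 17.7 and 11.95 CPM in sham mice 1 to 3 and 14.4, 10.4 and 11.7 CPM in BCAS mice 1 to 3. Sham mouse 3 lay among the BCAS mice, and the other sham mice lay above all of them. The fitted fold was 0.777, with an interval of 0.583 to 1.04 and an adjusted P of 0.164 in edgeR. The interval thus left room for a fall to 0.583 of the sham level and for a rise to 1.04 of it. In sham mouse 3 and BCAS mouse 2, the libraries with few choroid plexus counts, Anxa6 and Anxa11 were at their lowest and Anxa7 at its highest within the group, and the part of choroid plexus tissue in these values was not tested.

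**Figure D2:**
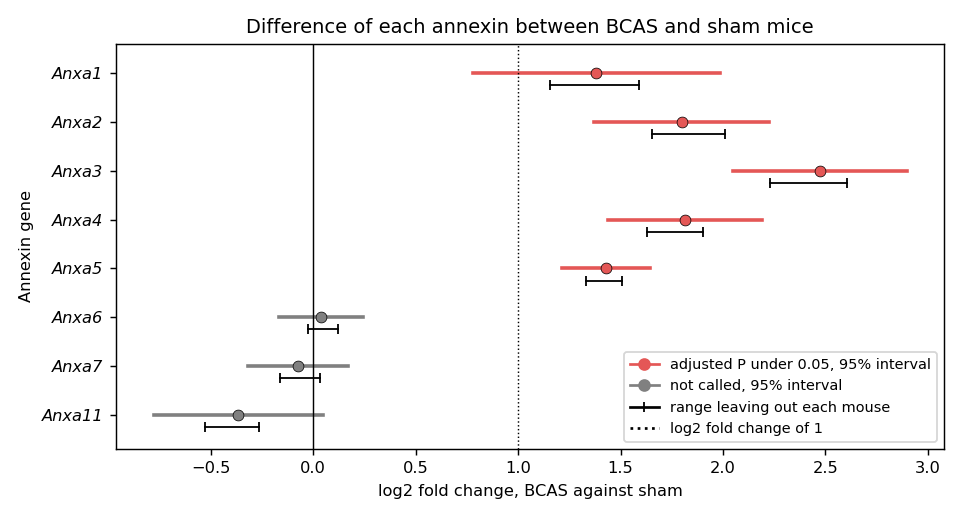
Log2 fold change of each annexin, BCAS against sham mice, as a point with its 95% confidence interval from edgeR, and a bracket for the range of the fits that leave out 1 mouse each. Anxa1 to Anxa5 lie between 1.38 and 2.47 with intervals above 0, and the intervals of Anxa6, Anxa7 and Anxa11 include 0.

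Compared as reads per kilobase of exon on the same library scale (RPKM), the annexins changed their order between the groups. The length used was that of all merged exons of a gene, not of the transcript made. The order depended on this correction, as in CPM Anxa7 led the sham mice at a mean of 106. Anxa6 followed at 89.8 and Anxa5 at 40.5 CPM. In sham mice Anxa6 led with 30.7 ± 3.15 RPKM (SD, n = 3), followed by Anxa5 with 22.8 ± 0.576 and Anxa7 with 17.7 ± 2.23 RPKM. A second tier of Anxa11, Anxa3 and Anxa2 followed at means of 3.78, 3.43 and 3.06 RPKM, and the ranges of neighbors in this tier overlapped. Anxa4 at 1.10 RPKM and Anxa1 at 0.984 RPKM were the lowest and overlapped as well.

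In BCAS mice Anxa5 took the first place with 61.4 ± 7.47 RPKM (SD, n = 3), ahead of Anxa6 with 31.5 ± 1.99 RPKM. Anxa3 came next with 19.1 ± 5.15 RPKM, and its range overlapped with that of Anxa7 at 16.8 ± 1.67 RPKM. Anxa2 was at 10.7 ± 1.9 RPKM, while Anxa4 (3.85 RPKM), Anxa11 (2.94 RPKM) and Anxa1 (2.57 RPKM) formed the end of the order, each overlapping with its neighbor. Anxa3 thus moved from below Anxa11 on average to several times its level. The ratio of Anxa3 to Anxa11 in RPKM was 0.719, 0.821 and 1.31 in sham mice 1 to 3, against 4.40, 6.74 and 8.84 in BCAS mice 1 to 3. The ratio of Anxa5 to Anxa6 was 0.785, 0.651 and 0.813 in the sham group against 1.62, 2.03 and 2.24 in the BCAS group. In RPKM, Anxa6 thus exceeded Anxa5 in every sham mouse and Anxa5 exceeded Anxa6 in every BCAS mouse. This crossing depended on the correction for length, as in BCAS mouse 1 Anxa5 had 96.9 CPM and Anxa6 98.5 CPM.

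The summed RPKM of the 8 annexins was 81.3, 85.3 and 83.9 in sham mice 1 to 3, against 137, 145 and 164 in BCAS mice 1 to 3. The sums of the groups did not overlap, and their means differed by a ratio of 1.78. Anxa5 made up 27.3% ± 1.35 of this sum in sham mice and 41.2% ± 1.41 in BCAS mice (SD, n = 3 each). Anxa3 went from 4.11% ± 0.410 to 12.7% ± 2.24, Anxa2 from 3.67% ± 0.868 to 7.13% ± 0.642 and Anxa4 from 1.31% ± 0.0601 to 2.57% ± 0.296. These members held a larger share in every BCAS mouse than in any sham mouse. The sizes of the share differences, here and below, depended on the correction for length, and differences without it are given in the closing section.

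The share of Anxa6 went from 36.7% ± 3.29 in sham mice to 21.3% ± 2.84 in BCAS mice, while its own level hardly differed. Anxa7 had 21.2% ± 2.58 and 11.4% ± 1.80, and Anxa11 had 4.53% ± 0.942 and 1.995% ± 0.466. For Anxa2 to Anxa7 and Anxa11 the shares of the groups did not overlap, with P = 0.1 each in a two-sided exact permutation test, the smallest P that 3 against 3 mice allow. The share of Anxa1 overlapped between the groups, at 1.18% ± 0.262 and 1.72% ± 0.500 (exact permutation P = 0.2). Shares are not independent of each other, because a larger share of one member lowers those of the rest.

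**Figure D3:**
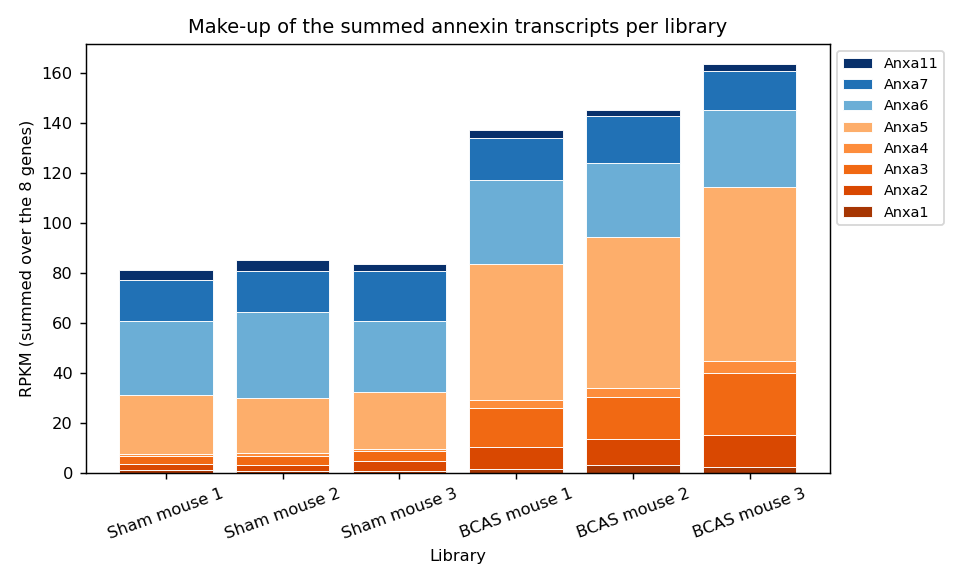
Summed RPKM of the 8 annexins in each of the 6 libraries as stacked bars starting at 0, with 1 color per member. The sums are 81.3 to 85.3 for sham mice against 137 to 164 for BCAS mice, and the Anxa5 and Anxa3 segments are taller in the BCAS bars.

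Annexins outside the 8 members were scarce. Anxa8 had 22 to 42 counts per library with a log2 fold change of 0.16 (adjusted P 0.774 in edgeR), a direction that turned without BCAS mouse 3 (-0.12). Counts of Anxa9 were 57, 45 and 48 in the sham group against 74, 49 and 98 in the BCAS group. Its log2 fold change was 0.67 (interval -0.01 to 1.34, adjusted P 0.121 in edgeR), and without BCAS mouse 2 it was 0.87 with an adjusted P of 0.0478, while 7.96% of the Anxa9 exon bases were shared with neighboring genes. Anxa10 had 0 counts in all libraries and Anxa13 had 4 counts in BCAS mouse 3 and 0 elsewhere. The floor used for 0 counts was 3 counts, or 0.0875 to 0.0995 CPM. Because both mates of a pair were counted, the level that 0 counts allow may lie above this floor.

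Proteins that act with annexins were read from short lists. S100 proteins bind annexin tails, and all 5 of the 6 listed genes that passed the count filter were higher in BCAS mice, with a median log2 fold change of 1.01, beside a median of 0.018 and 18.0% called higher over all tested genes. S100a10, the partner of Anxa2, had 15.3, 14.8 and 17.6 CPM in sham mice and 24.6, 28.5 and 23.6 CPM in BCAS mice (log2 fold change 0.69, SE 0.12, adjusted P 0.00302 in edgeR). On the log2 scale Anxa2 itself thus differed more than S100a10 did, though the difference between these genes was not tested. S100a11, the partner of Anxa1, had a log2 fold change of 1.63 (adjusted P 0.00191 in edgeR), S100a6 one of 2.10, S100b one of 1.01 and S100a1 one of 0.69. S100a4 had at most 3 counts in any library and was not tested.

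Plasmin formation, which the pair of Anxa2 and S100a10 promotes, was covered by 6 genes that include activators, receptors and an inhibitor, with 1 planned gene left out, and all 5 that were tested were higher in BCAS mice, beside 18.0% of all tested genes, with a median log2 fold change of 1.22. Plau, the urokinase activator, had 2.83, 2.90 and 3.18 CPM in sham mice and 21.7, 23.1 and 29.4 CPM in BCAS mice, which gave a log2 fold change of 3.06 (SE 0.15, adjusted P 1.16e-05 in edgeR). Its receptor Plaur had a still larger log2 fold change of 3.70, from levels under 1 CPM in sham mice. Serpine2, an inhibitor of both plasminogen activators and of plasmin, had a log2 fold change of 1.22, and the plasminogen receptor Plgrkt one of 0.99. Plat, the tissue activator known to bind Anxa2, had the smallest log2 fold change at 0.42 (adjusted P 0.0228 in edgeR), and without any 1 sham mouse its adjusted P was 0.0663 to 0.0785. Plasminogen itself, Plg, had 2 to 7 counts per library and was not tested.

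Membrane repair genes, which annexins join at torn membranes, were mixed, as 5 of 10 rose and 0 fell, beside 18.0% and 13.2% of all tested genes, with a median log2 fold change of 0.19. The scaffold Ahnak, which binds Anxa2 with S100a10, had 24.8, 23.3 and 24.2 CPM in sham mice and 63.1, 50.4 and 72.6 CPM in BCAS mice (log2 fold change 1.36, adjusted P 1.19e-04 in edgeR). Myof (1.22), Dysf (0.71), Capn2 (0.53) and Pdcd6ip (0.25) were the other genes that rose. The calls of Dysf and Pdcd6ip, at adjusted P values of 0.0227 and 0.0272 in edgeR, were lost without 4 and 5 of the 6 mice in turn, with values up to 0.081 and 0.0949.

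Phosphatidylserine is the lipid that Anxa5 binds, and of 7 genes that move it between membrane leaflets 4 rose and 1 fell, beside 18.0% and 13.2% of all tested genes, with a median log2 fold change of 0.54. The scramblase Ano6 went from 28.2 ± 1.70 to 43.0 ± 6.26 CPM (SD, n = 3 each; log2 fold change 0.61, adjusted P 0.00515 in edgeR), and Plscr1, named as a phospholipid scramblase, had a log2 fold change of 1.47. Xkr8 (0.50, adjusted P 0.0403) lost its edgeR call without 5 of the 6 mice in turn, with values up to 0.14. The flippase Atp11a (0.58, adjusted P 0.0142) lost it without sham mouse 3 (0.0669). Tmem30a, the shared flippase subunit, fell by 0.40 on the log2 scale (adjusted P 0.0185 in edgeR), and without any 1 sham mouse its adjusted P was 0.0579 to 0.067.

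Few transcripts were found for the receptors of Anxa1. Counts of Fpr1 were 7, 11 and 12 in the sham group against 6, 16 and 2 in the BCAS group, and this receptor, the only 1 of the 3 that was tested, did not pass (adjusted P 0.861 in edgeR). Fpr2 had 2, 2 and 8 counts in the sham group against 4, 18 and 10 in the BCAS group. These ranges overlapped, and Fpr2 was not tested. Fpr3 had 0 counts in all libraries. Of 4 genes around glucocorticoid action and phospholipase A2, which Anxa1 was first known to inhibit, 1 rose and 1 fell, beside 18.0% and 13.2% of all tested genes. Pla2g4a rose (log2 fold change 1.21, adjusted P 0.00204 in edgeR) and the glucocorticoid target Tsc22d3 fell by 0.38 (adjusted P 0.0122, and 0.0545 without sham mouse 3). Another glucocorticoid target, Fkbp5, was not called at a log2 fold change of -0.12 (adjusted P 0.449 in edgeR), and its groups overlapped. The glucocorticoid receptor gene Nr3c1 had a log2 fold change of 0.14 (adjusted P 0.148) and, with library totals, of 0.22 (adjusted P 0.0451). Among 3 genes listed for Anxa7 and Anxa11, 1 rose and 0 fell, beside 18.0% and 13.2% of all tested genes. The gene that rose was Lamp1, listed as a lysosomal gene (log2 fold change 0.97, adjusted P 3.52e-04 in edgeR). Sri, which binds Anxa7, and Pdcd6, which binds both, did not pass the test at log2 fold changes of 0.14 and 0.04.

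**Figure D4:**
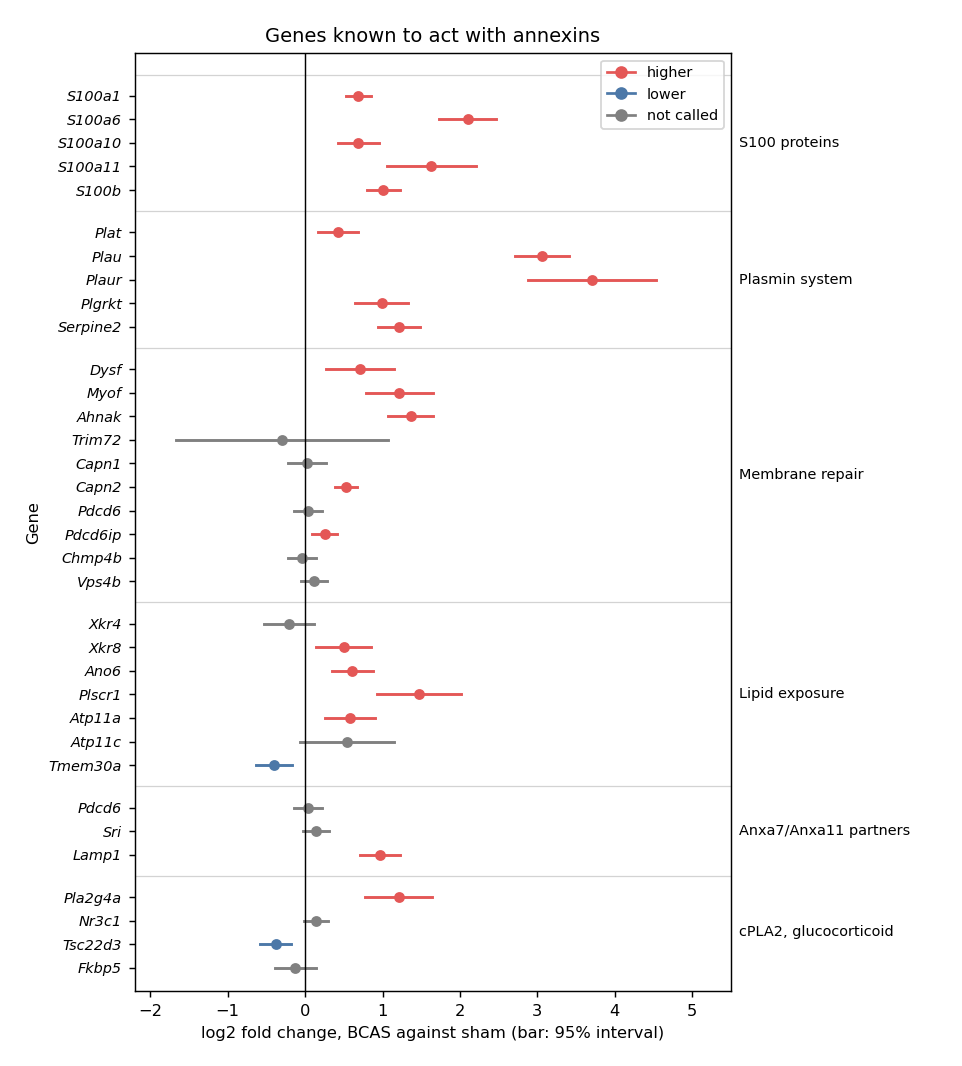
Log2 fold change, BCAS against sham mice, with its 95% confidence interval from edgeR, for the tested genes of the lists of annexin partners and related genes, grouped by list. The plasmin genes reach from 0.42 for Plat to 3.70 for Plaur, and the only genes lower past the test are Tmem30a and Tsc22d3.

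Markers of several cell types moved with the annexins that rose. All 8 microglial markers were higher in BCAS mice, beside 18.0% of all tested genes. Their sum was 308 to 322 CPM in the sham group, against 1492, 1560 and 2383 CPM in BCAS mice 1 to 3. BCAS mouse 3 was highest, as for Anxa2, Anxa3, Anxa4 and Anxa5. It was also highest in the sums for border macrophages, meningeal fibroblasts and oligodendrocytes, so this order was not particular to microglia. The sum of the 5 astrocyte markers, all of which rose, was 1359 to 1499 CPM in the sham group. In BCAS mice 1 to 3 it was 5834, 5326 and 5667 CPM, with BCAS mouse 1 highest. Endothelial markers rose in 4 of 5 cases (220 to 241 and 300 to 335 CPM in sum), meningeal fibroblast markers in 3 of 5 (78.7 to 165 and 167 to 275 CPM) and border macrophage markers in 2 of 4 (7.33 to 10.1 and 16.3 to 22.3 CPM). Markers of neutrophils and monocytes summed to 0.658 to 1.63 CPM in the sham group against 4.83 to 10.1 CPM in the BCAS group, with the neutrophil marker Ly6g at 0 counts in every library. In that list the monocyte genes Ly6c2, with 0 or 1 count in each sham mouse against 39 to 74 in BCAS mice, and Ccr2, with 14 to 19 against 99 to 176 counts, were called higher. S100a9 was not called at a log2 fold change of 1.25, and S100a8, at 2 to 9 and 5 to 36 counts, was not tested. None of the 4 choroid plexus markers passed the test, with a summed level of 65.1 to 4003 CPM in the sham group against 37.1 to 5806 CPM in the BCAS group, and of 4 ependymal markers 1 was higher. Of the 6 lymphocyte markers 4 were tested and 3 were higher, while 0 of 4 oligodendrocyte markers passed. Mural cell markers rose in 2 of 5 cases (219 to 266 and 254 to 274 CPM in sum) and markers of oligodendrocyte precursors in 1 of 3 (246 to 272 and 275 to 334 CPM). Of 4 genes that mark hippocampal subregions, Fibcd1 and Neurod6 fell, by 1.91 and 1.56 on the log2 scale, beside 13.2% of all tested genes called lower. The part of these cells in the annexin levels was not tested.

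Likeness in level over the 6 libraries was measured by Pearson's r of log2 CPM against 15623 genes with a mean of at least 1 CPM, as a description in which all points share the difference between the groups. Closest to Anxa3 were Ifit1 (r = 0.9998), Lyl1 and Nrros, and closest to Anxa5 were Ctsh (r = 0.9998), Runx1 and Dock2. Anxa4 lay nearest to Gm38158, Cd37 (r = 0.9996) and Havcr2, and Anxa2 to Spi1 (r = 0.999), Rpl10 and Gpsm3. Anxa1 ran nearest to Irf2 (r = 0.996), Slc25a37 and Tnfaip3. Many other genes were almost as near, as 1323 to 1725 genes had r above 0.95 with each of Anxa2 to Anxa5 and 184 with Anxa1. For Anxa6, Anxa7 and Anxa11 the numbers were 10, 25 and 32, led by Pomgnt1 (r = 0.981), Smyd3 (r = 0.979) and Olfr539 (r = 0.994).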

How the data were processed

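Raw counts per gene were used as deposited; the authors made them from trimmed reads by alignment to mm10 with HISAT2 and counting with featureCounts. Per the file headers, both mates of a pair were counted as reads without regard to strand (featureCounts 2.0.3, GENCODE vM20), and multi-mapping reads were left out; the submitters' processing notes name featureCounts 1.6.3. Symbols were matched for all but 29 of 54752 genes. In R 4.3.3, genes were kept with filterByExpr, scaled by TMM and compared between 3 BCAS and 3 sham mice with edgeR 4.0.16 (quasi-likelihood test, Benjamini-Hochberg over 18617 genes). Adjusted P under 0.05 was called, with an absolute log2 fold change above 1 as the second threshold. RPKM used the deposited exon lengths, and log2 CPM a prior count of 2. Libraries held 29652456 to 35607098 counts. On TMM-scaled library sizes 3 counts, the floor for a count of 0, equal 0.0875 to 0.0995 CPM, which covers counting error only. The floor takes counts as independent, while both mates of a pair were counted, so it may be too low. Shares were compared by exact permutation tests.

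The members and lists were chosen with earlier results of these data known. All 8 members are named, genes of the lists with their values, and the 3 genes nearest to each member. Alternatives were DESeq2 1.42.0, limma-voom (limma 3.58.1), RLE factors, library totals, filters at 1 count and at a mean of 10 counts, glmTreat, a replicate block, shares on CPM without length, and leaving out each mouse. Halved counts, the 4 libraries with high choroid plexus markers and the TATAAA motif were added after seeing the data. The steps were tested on simulated data. Protein sequences were not analysed here, and 1 further gene planned for the plasmin list is not reported here and is left out of the counts of that list.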

Additional observations from a re-analysis of the deposited data

How the results depend on the processing

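The 5 annexins called higher were so under every alternative but glmTreat, a test against a log2 fold change of 1, which kept 4 and left Anxa1 at 1.38 with an adjusted P of 0.435. The same test in edgeR called 804 of all tested genes higher and 14 lower, and no alternative called a member lower. Without 1 mouse, the log2 fold changes were 1.16 to 1.59 for Anxa1, 1.65 to 2.01 for Anxa2, 2.23 to 2.61 for Anxa3, 1.63 to 1.9 for Anxa4, 1.33 to 1.51 for Anxa5, -0.026 to 0.12 for Anxa6, -0.16 to 0.033 for Anxa7 and -0.53 to -0.27 for Anxa11, whose adjusted P was 0.0564 to 0.393. Library totals gave 0.0028 for Anxa7. Over all genes, 2453 to 3554 were higher and 1260 to 3092 lower without 1 mouse, and the lower ones numbered 1449, 1412 and 1260 without sham mouse 1, 2 or 3; the cause was not tested. Among other genes, the range reached both signs for Pdcd6 (-0.0095 without sham mouse 1, up to 0.079) and for Anxa8 (-0.12 without BCAS mouse 3, up to 0.33). On CPM, with no correction for length, the shares differed by 4.81 percentage points for Anxa2, 10.9 for Anxa3, 2.18 for Anxa4, 10.001 for Anxa5, -11.0 for Anxa6 and -14.7 for Anxa7, since length enters the share itself. Among the alternatives for 28 other genes, 49 values lost the call, 2 gained it, 2 changed sign while uncalled, and 395 kept both their sign and their side of the threshold.

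The numbers in the labels were not taken as pairs, since the labels give them no meaning. Same-numbered sham and BCAS mice had residual correlations of 0.036, -0.314 and -0.158. The highest correlation, 0.347, joined sham mouse 3 and BCAS mouse 2, the libraries with few choroid plexus counts. Such values can carry differences in dissected tissue, and so they cannot show whether mice were paired. Inside the tables the BCAS columns are numbered 2 to 4, and by that numbering only 2 pairs exist, with correlations of 0.223 and 0.347; no block was fitted for these. With the replicate block on the labels' numbers, 2782 genes were higher and 1750 lower, the 5 annexins stayed called, and Dysf, Pdcd6ip, Xkr8 and Tmem30a lost the call (adjusted P 0.0617, 0.0653, 0.0849 and 0.0519 in edgeR). With 3 mice per group, Anxa1, at 66 to 259 counts, was measured least precisely among the annexins that rose.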
